A study of Mus musculus with 15 samples.

Results

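A group of 8 genes for small proteins that chondrocytes secrete or carry at their surface, all of them cartilage markers, were followed among the 24134 genes of each of the deposited count tables: Cytl1, Cnmd (formerly Lect1), Mia, Snorc, Ucma, Scrg1, Clec3a and C1qtnf3. They were chosen by name with earlier results of these data known, so the shares of all genes set beside them are a description. All 8 had enough reads to be tested in every comparison. The cells were primary articular chondrocytes at passage 0, prepared from the knee-joint ends of the femur and tibia of ICR mouse pups aged 4–5 days. All groups were of this strain, with no other genotype stated. In the drug table, 3 libraries each came from cells given DMSO (the solvent), XAV939 or IWR-1. Both compounds inhibit the tankyrases, enzymes that attach poly(ADP-ribose) chains to other proteins, and both were used at 10 μM for 108 h. In the siRNA table, 3 libraries came from cells transfected with a control siRNA (siCtrl) and 3 from cells given siRNAs against Tnks and Tnks2, the genes of both tankyrases (siTnks/2). All groups were cultured in serum-containing medium, and XAV939 and IWR-1 were compared with the same 3 DMSO libraries.

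Chondrocytes fill the space around them with collagen fibrils and the large proteoglycan aggrecan, and their transcription factor SOX9, with SOX5 and SOX6, drives the genes of that matrix. Alongside the bulk matrix they make small proteins of varied families that serve as markers of the cell type. Cytl1 encodes a cytokine-like secreted protein, C1qtnf3 (CTRP3, cartducin) a member of the C1q and TNF-related family, Mia (CD-RAP) a small secreted SH3-fold protein of cartilage and melanoma, and Clec3a a C-type lectin of cartilage. Cnmd encodes chondromodulin, which is released from a membrane precursor and inhibits blood vessel growth, Snorc a chondroitin sulfate proteoglycan of the chondrocyte membrane, Ucma a Gla-rich protein bound in the matrix and Scrg1 a small secreted protein of differentiating chondrocytes.

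The label small held for most but not all of them. By the GENCODE annotation on mm10, the encoded chains before processing had 98 residues for Scrg1, 121 for Snorc, 131 for Mia, 138 for Ucma, 139 for Cytl1 and 196 for Clec3a, against 319 for C1qtnf3 and 338 for Cnmd. The genes lie at chr5:37735519-37739820 (Cytl1), chr14:79637682-79662194 (Cnmd), chr7:27179741-27181149 (Mia), chr1:87470201-87475482 (Snorc), chr2:4976122-4985748 (Ucma), chr8:57455882-57479360 (Scrg1), chr8:114418034-114428133 (Clec3a) and chr15:10952119-10980162 (C1qtnf3). Cnmd and Mia are on the minus strand. Scrg1 and Clec3a share a chromosome but not a neighbourhood. The Mia interval is overlapped on its own strand by a predicted readthrough gene, Gm21983, so reads there could have been left out as ambiguous, and the level of Mia is uncertain to that extent. Snorc, Ucma, Mia and Cnmd are on the list of SOX9 target genes that the study used, and Cytl1, Scrg1, Clec3a and C1qtnf3 are not. All 8 are on its list of cartilage signature genes.

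RefSeq promoter windows of 300 bases on mm10 were at hand for 5 of the 8 genes (Cytl1, Cnmd, Mia, Ucma and C1qtnf3). The letters of the SOX core, ACAAAG or ACAATG on either strand, were in 0 of these 5 windows and in 28.6% of all 32851 windows (ACAAAG in 18.7%, ACAATG in 12.6%). The letters TATAAA, on either strand, were in the window of C1qtnf3 alone and in 13.6% of all windows. The stretches just before the first annotated base of Cytl1 and Ucma are shown because, of these 5 genes, they had the largest and the smallest change with IWR-1. Lower case throughout marks that none of the 3 searched words occurs in them.
Cytl1, chr5:37735269-37735518, plus strand: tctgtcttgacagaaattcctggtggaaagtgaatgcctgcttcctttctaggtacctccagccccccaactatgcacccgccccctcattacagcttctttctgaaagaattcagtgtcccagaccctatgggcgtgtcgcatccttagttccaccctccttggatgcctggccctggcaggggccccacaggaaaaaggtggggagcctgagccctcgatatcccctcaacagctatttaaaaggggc
Ucma, chr2:4975872-4976121, plus strand: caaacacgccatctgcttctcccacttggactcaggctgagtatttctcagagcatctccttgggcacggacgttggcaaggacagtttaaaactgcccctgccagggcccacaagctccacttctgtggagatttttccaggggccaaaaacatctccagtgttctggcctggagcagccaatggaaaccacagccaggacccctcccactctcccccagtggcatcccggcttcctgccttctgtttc

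The libraries held 26857070 to 36615194 counts, and the 8 genes together took 29502 to 175223 of the counts in a library. Tnks and Tnks2 checked the labels of the knockdown. Tnks had 69.0, 58.4 and 70.1 CPM (reads of a gene after division by the effective library size) in siCtrl libraries 1 to 3 and 19.5, 12.7 and 24.0 in siTnks/2. It fell by 1.81 on the log2 scale (SE 0.22, edgeR adjusted p = 0.00569), and Tnks2 fell by 1.10 (SE 0.11, adjusted p = 0.00384). The 6 chondrocyte markers (Col2a1, Acan, Sox9, Col9a1, Hapln1 and Matn3) were all above 1 CPM on average in every group. Their summed level moved with the members: 71200 to 97800 CPM in siCtrl, 102000 to 173000 in siTnks/2, 23400 to 31700 in DMSO, 31500 to 47300 in XAV939 and 76600 to 98300 in IWR-1. Col2a1 made up most of this sum, at 58070 to 81500 CPM in siCtrl. Singly, 1 of the 6 rose with siTnks/2, 2 with XAV939 and 6 with IWR-1, against 10.4%, 7.57% and 16.2% of all genes. In bulk RNA, fewer cells of a type and less RNA per cell cannot be told apart. Markers of leukocytes summed to at most 11.9 CPM, of endothelium to at most 6.88, of skeletal muscle to at most 6.91, of adipocytes to at most 0.754 and of red cells to at most 0.0356. Superficial zone and synovial lining markers (5 genes) summed to 153 to 302 CPM in siCtrl, 173 to 272 in siTnks/2, 677 to 1350 in DMSO, 461 to 1400 in XAV939 and 377 to 1000 in IWR-1, and osteoblast markers (5 genes) to 62.9 to 80 in siCtrl, 93.3 to 169 in siTnks/2, 43.2 to 67.3 in DMSO, 62.9 to 75 in XAV939 and 46.9 to 66.1 in IWR-1. Ibsp made up most of the osteoblast sum in the drug table, with means of 47.7 CPM in DMSO, 48.0 in XAV939 and 37.4 in IWR-1. Of the 4 osteoblast markers tested there, 3 rose with XAV939 and 3 with IWR-1, where 7.57% and 16.2% of all genes rose. With siTnks/2 1 of 5 osteoblast markers rose, against 10.4% of all genes. Prg4 made up most of the superficial zone sum in the drug table, with means of 714 CPM in DMSO, 667 in XAV939 and 508 in IWR-1. Singly, 1 of these 5 markers rose and 1 fell with XAV939, where 7.57% and 9.85% of all genes did. With IWR-1 0 rose and 2 fell (16.2% and 20.2% of all genes), and with siTnks/2 1 rose and 0 fell (10.4% and 7.61%). The part of these marker lists in the results was not tested.

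Levels between the genes were compared per kilobase of exon. In siCtrl the order ran from Cnmd with 879 CPM per kb through Clec3a (638), Ucma (357), Snorc (306), Scrg1 (257) and Mia (43.9) to Cytl1 (10.2) and C1qtnf3 (9.60). In DMSO Cnmd was again on top with 413 CPM per kb, followed by Ucma (251), Scrg1 (158), Snorc (65.3), Clec3a (47.8), Mia (23.6), C1qtnf3 (2.70) and Cytl1 (2.38). Clec3a therefore stood above Ucma, Snorc and Scrg1 in the siRNA control and below all 3 in the drug control. Its annotated exons held 591 bases, 588 of them coding, against 884 and 414 for Ucma. The value of Clec3a per kb is uncertain to the extent that untranslated ends are missing from its annotation. In plain CPM Clec3a also stood above these 3 in siCtrl, with a mean of 377, and below them in DMSO, with 28.2. The library ranges of Ucma and Snorc, Snorc and Scrg1, and Cytl1 and C1qtnf3 overlapped in siCtrl, and in DMSO those of all neighbours in the order but Mia and C1qtnf3 did. These tables were normalised separately, and their controls were not tested against each other.

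Cytl1 was the member with the strongest response to both the knockdown and IWR-1. Its level was 8.99, 15.8 and 7.56 CPM in siCtrl and 36.9, 59.6 and 36.6 CPM in siTnks/2. In the drug table it was 2.35, 3.29 and 1.92 CPM in DMSO, 5.74, 5.18 and 3.92 in XAV939 and 23.8, 29.0 and 26.7 in IWR-1. Every treated library was above every library of its control, and the IWR-1 libraries were above the XAV939 libraries too. In DMSO this rested on 61 to 113 reads per library. Cytl1 rose 4.11-fold with siTnks/2 (log2 2.04, SE 0.32, adjusted p = 0.0102), 1.94-fold with XAV939 (log2 0.96, SE 0.21, adjusted p = 0.0104) and 10.3-fold with IWR-1 (log2 3.36, SE 0.21, adjusted p = 2.62e-06). By fold change with IWR-1 it ranked 25 from the highest of the 13873 genes tested.

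Clec3a came next. It had 370.4, 450 and 311 CPM in siCtrl and 1024, 2122 and 891 in siTnks/2, while the DMSO libraries held 19.6, 39.0 and 26.1, the XAV939 libraries 54.7, 86.6 and 55.7 and the IWR-1 libraries 159, 200 and 139. No treated library overlapped its control, and siTnks/2 replicate 2 was far above the other libraries of its group. The rise was 3.57-fold with siTnks/2 (log2 1.83, SE 0.34, adjusted p = 0.0159), 2.32-fold with XAV939 (log2 1.21, SE 0.26, adjusted p = 0.00887) and 5.86-fold with IWR-1 (log2 2.55, SE 0.27, adjusted p = 4.05e-05).

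C1qtnf3 was the steadiest of the 8 within groups. Its libraries had 24.9, 22.6 and 26.1 CPM in siCtrl against 44.0, 47.6 and 50.7 in siTnks/2. The drug table gave 6.62, 7.28 and 6.82 CPM in DMSO, 11.6, 9.64 and 11.7 in XAV939 and 24.7, 23.9 and 23.7 in IWR-1. Again no treated library reached down to its control. The fold changes were 1.93 with siTnks/2 (log2 0.95, SE 0.08, adjusted p = 0.00298), 1.59 with XAV939 (log2 0.67, SE 0.12, adjusted p = 0.00309) and 3.47 with IWR-1 (log2 1.79, SE 0.12, adjusted p = 2.90e-06). Its standard errors were the smallest among the members in all 3 comparisons.

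**Figure D1:**
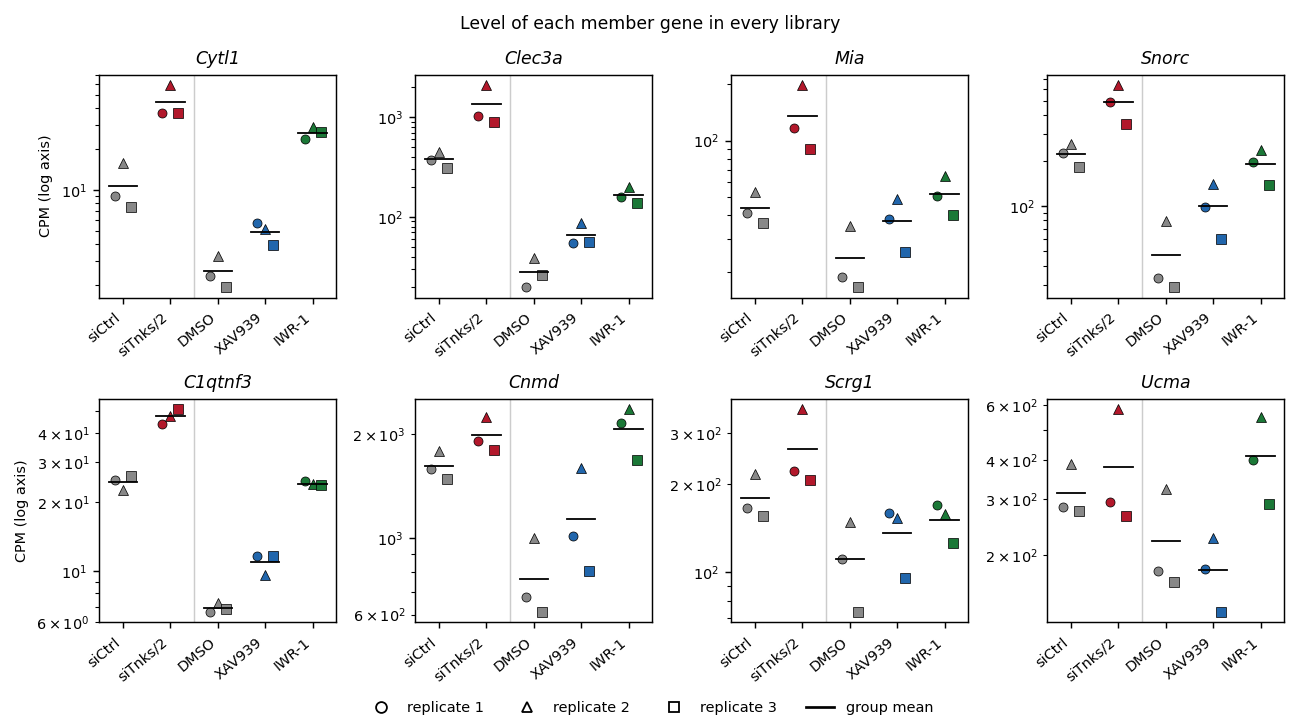
Level of each of the 8 genes in every library, in CPM on a log axis, by group, with symbols for replicate numbers, a bar for the group mean and a grey line between the siRNA and the drug table. Cytl1, Clec3a and C1qtnf3 in treated libraries stay above their controls, and replicate 2 (triangles) is the highest library of its group for Cnmd, Mia, Snorc, Ucma and Clec3a in all 5 groups.

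Snorc and Mia rose with the knockdown and with IWR-1, and their XAV939 values depended on how replicate numbers were treated. Snorc had 225, 256 and 181 CPM in siCtrl, 490.2, 640 and 350 in siTnks/2, 33.2, 79.7 and 28.7 in DMSO, 98.0, 140.4 and 59.9 in XAV939 and 196, 234 and 139 in IWR-1. DMSO replicate 2 lay above XAV939 replicate 3, so these groups overlapped, while IWR-1 and siTnks/2 did not overlap their controls. Snorc changed 2.24-fold with siTnks/2 (log2 1.16, SE 0.23, adjusted p = 0.0190) and 4.01-fold with IWR-1 (log2 2.00, SE 0.41, adjusted p = 0.00278), and its XAV939 difference of 1.07 on the log2 scale did not pass (SE 0.40, adjusted p = 0.0871). With the replicate number as a block it did pass (log2 1.13, adjusted p = 0.000278).

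Mia, too, varied widely within groups. It had 41.3, 53.5 and 36.1 CPM in siCtrl, 117, 199 and 90.6 in siTnks/2, 18.8, 35.2 and 16.4 in DMSO, 38.0, 48.9 and 25.5 in XAV939 and 50.6, 64.8 and 39.9 in IWR-1. The XAV939 and DMSO libraries overlapped through DMSO replicate 2, and the other treated groups stood clear of their controls. Mia rose 3.11-fold with siTnks/2 (log2 1.64, SE 0.30, adjusted p = 0.0152) and 2.20-fold with IWR-1 (log2 1.14, SE 0.31, adjusted p = 0.0145). The IWR-1 call was lost without DMSO replicate 1 (adjusted p = 0.0629) or IWR-1 replicate 2 (adjusted p = 0.0618). With XAV939 the difference was 0.67 on the log2 scale (SE 0.31, adjusted p = 0.160), and 0.70 with the block (adjusted p = 0.000945). Mia was the one member that passed in both the knockdown and IWR-1 with a larger fold change in the knockdown, a difference whose own test did not pass (log2 -0.51, adjusted p = 0.460).

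In CPM per kb Cnmd stood first of the 8 in all groups but siTnks/2, where Clec3a had 2277 and Cnmd 1077. Cnmd rose with IWR-1. It had 1590, 1786 and 1484 CPM in siCtrl and 1913, 2237 and 1802 in siTnks/2. In the drug table the levels were 676, 998 and 610 in DMSO, 1015, 1595 and 802 in XAV939 and 2158, 2360 and 1681 in IWR-1. Each siTnks/2 library was above each siCtrl library but by a narrow margin, and XAV939 replicate 3 lay below DMSO replicate 2. Cnmd changed 2.71-fold with IWR-1 (log2 1.44, SE 0.27, adjusted p = 0.00158). The knockdown difference was 0.29 on the log2 scale (SE 0.12, adjusted p = 0.120) and the XAV939 difference 0.58 (SE 0.26, adjusted p = 0.153), and with the replicate block both passed at nearly the same size (adjusted p = 0.0181 and 0.00419).

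Ucma and Scrg1 had the smallest fold changes with both drugs. Ucma had 283, 388 and 276 CPM in siCtrl, 294, 580.2 and 266 in siTnks/2, 178, 323 and 164 in DMSO, 180.4, 226 and 131 in XAV939 and 399.9, 548 and 290.3 in IWR-1. In all 3 comparisons treated and control libraries overlapped, and replicate 2 was the highest library of every group. Ucma passed only with IWR-1, at 1.86-fold (log2 0.90, SE 0.30, adjusted p = 0.0378), and the value fell short when only the DMSO and IWR-1 libraries were fitted (adjusted p = 0.0506) or when DMSO replicate 1, DMSO replicate 3, IWR-1 replicate 1 or IWR-1 replicate 2 was left out (adjusted p from 0.0755 to 0.159). The knockdown difference was 0.27 on the log2 scale (SE 0.31, adjusted p = 0.570), and with XAV939 Ucma was the one member below its control, by -0.31 (SE 0.30, adjusted p = 0.512).

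Scrg1 had 166, 218 and 155 CPM in siCtrl, 223, 361 and 207 in siTnks/2, 111, 149 and 73.1 in DMSO, 160, 154 and 95.7 in XAV939 and 170, 158 and 126 in IWR-1. Its groups overlapped in every comparison. It did not pass with siTnks/2 (log2 0.55, SE 0.23, adjusted p = 0.139), XAV939 (log2 0.30, SE 0.25, adjusted p = 0.444) or IWR-1 (log2 0.45, SE 0.25, adjusted p = 0.199). The 95% interval of the IWR-1 difference, -0.11 to 1.01, still held a doubling. With the replicate block Scrg1 passed in the knockdown (log2 0.52, adjusted p = 0.00743) and with IWR-1 (log2 0.49, adjusted p = 0.00597), and not with XAV939 (adjusted p = 0.0687).

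Counted together, 5 of 8 members rose with siTnks/2 (Cytl1, Clec3a, Mia, Snorc and C1qtnf3) and 0 fell, where 10.4% of all 13672 genes rose and 7.61% fell. With XAV939 3 rose (Cytl1, Clec3a and C1qtnf3) and 0 fell, where 7.57% of 13873 genes rose and 9.85% fell. With IWR-1 7 rose, all but Scrg1, and 0 fell, against 16.2% and 20.2% of all genes. On the log2 scale the members' median was 1.05 with siTnks/2, 0.67 with XAV939 and 1.62 with IWR-1, beside -0.0012, 0.02 and 0.01 over all genes tested. Treated and control libraries were clear of each other, with the treated higher, for 6 members with siTnks/2 (21.6% of all genes), 3 with XAV939 (16.4%) and 6 with IWR-1 (24.7%). The knockdown count leaned on single libraries: it was 1 without siCtrl replicate 1 (C1qtnf3 alone), 2 without siCtrl replicate 3 and 3 without siCtrl replicate 2, with the adjusted p of the calls lost between 0.0505 and 0.0725 in these 3 fits. Snorc was also lost without siTnks/2 replicate 1 (adjusted p = 0.0620). The XAV939 count was 5 without DMSO replicate 2. Of the 4 members on the SOX9 target list, 2 rose with siTnks/2, 0 with XAV939 and 4 with IWR-1, and of the 4 others 3 rose in each comparison. The median XAV939 change on the log2 scale was 0.62 for the members on the list and 0.81 for the others. With the replicate block Snorc, Mia and Cnmd of the list passed with XAV939, as did Cytl1, Clec3a and C1qtnf3 (16% of all genes).

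**Figure D2:**
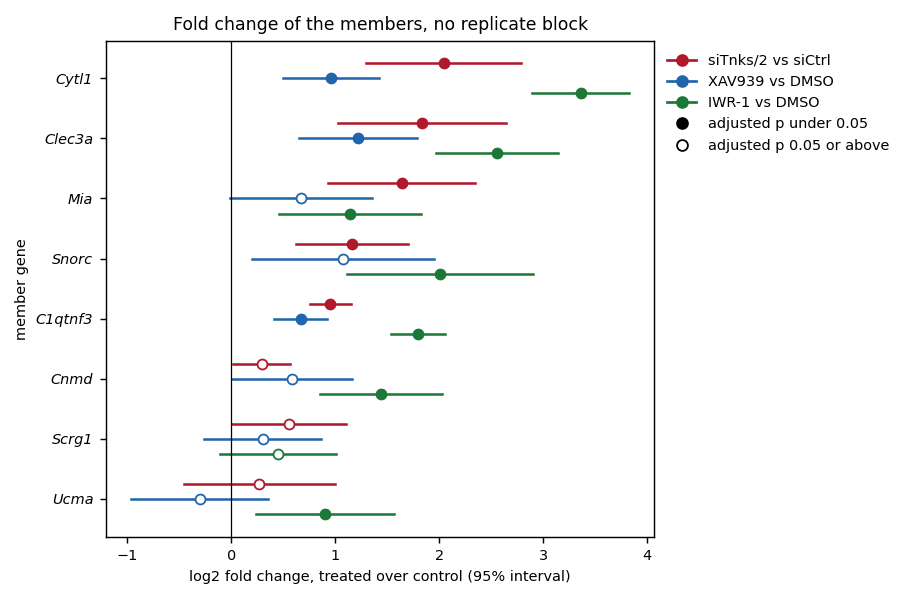
Log2 fold change of each member with its 95% interval for siTnks/2 against siCtrl, XAV939 against DMSO and IWR-1 against DMSO, with filled points where the adjusted p is under 0.05. Cytl1 with IWR-1 lies farthest to the right at 3.36, and Ucma with XAV939 is the one point left of zero.

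The replicate numbers carried part of the spread. Replicate 2 was the highest library of its group in all 5 groups for Cnmd, Mia, Snorc, Ucma and Clec3a, in 4 for Cytl1, in 3 for Scrg1 and in 1 for C1qtnf3. When each treated library was set against the control library of the same number, the difference in log2 CPM was positive in all 3 pairs for every member with IWR-1. It was positive in 3 of 3 pairs for 7 members with siTnks/2 and with XAV939, Ucma being the exception with 2 and 1. Cnmd in the knockdown, for example, differed by 0.27 to 0.33 across its pairs, and Snorc with XAV939 by 0.82 to 1.56. With the number as a block, 7 members rose with siTnks/2 (18.1% of all genes), 6 with XAV939 (16% of all genes) and 8 with IWR-1 (22.2% of all genes), and 0 fell. Ucma (knockdown), Ucma and Scrg1 (XAV939) were the members not called in that fit.

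**Figure D3:**
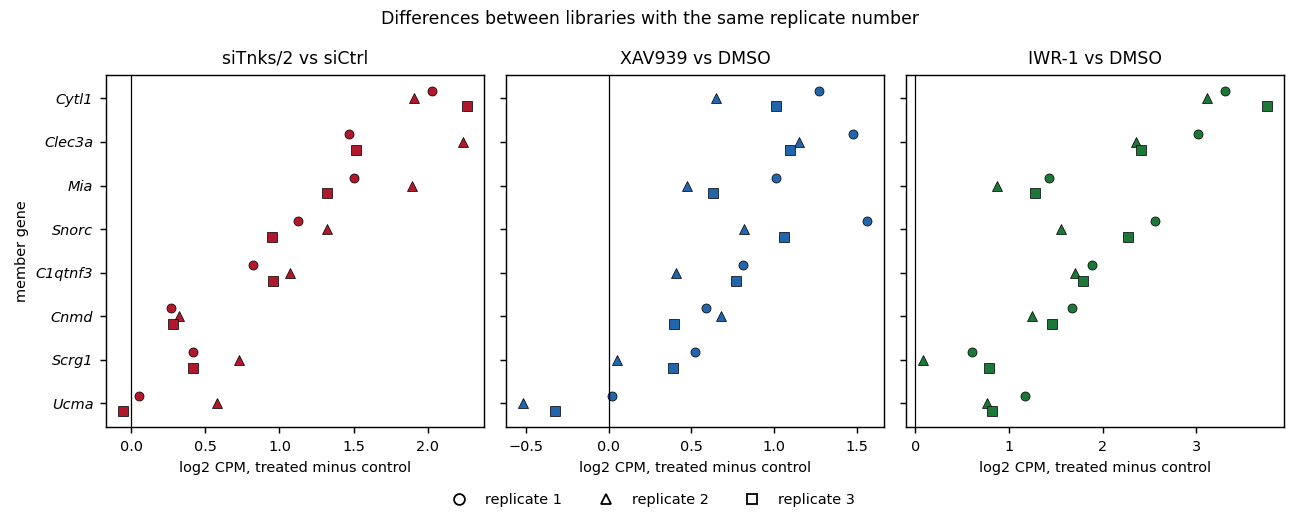
Difference in log2 CPM between each treated library and the control library with the same replicate number, for each member, in 1 panel per comparison. All pairs lie right of zero with IWR-1, and in the other panels the points left of zero are those of Ucma.

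IWR-1 and XAV939 at the same dose and time differed for most of the genes. Levels were higher with IWR-1 by 2.40 on the log2 scale for Cytl1 (SE 0.20, adjusted p = 5.49e-05), 1.34 for Clec3a (SE 0.25, adjusted p = 0.00503), 1.13 for C1qtnf3 (SE 0.11, adjusted p = 0.000169), 1.20 for Ucma (SE 0.30, adjusted p = 0.0198) and 0.86 for Cnmd (SE 0.26, adjusted p = 0.0446). These 5 members, and no others, also had IWR-1 libraries clear of the XAV939 libraries (18.2% of all genes, higher), and 7.37% of all genes passed in this direction. For Snorc the difference was 0.93 (95% interval 0.06 to 1.80, adjusted p = 0.132), for Mia 0.47 (-0.21 to 1.14, adjusted p = 0.333) and for Scrg1 0.15 (-0.41 to 0.71, adjusted p = 0.739). The block added Snorc (log2 0.99, adjusted p = 0.000597) and Mia (log2 0.49, adjusted p = 0.00750), for 7 members where 14.1% of all genes rose. Without XAV939 replicate 1, XAV939 replicate 3 or IWR-1 replicate 2 the count was 3, with the values of Cnmd and Ucma no longer past the threshold. Cnmd was also lost without DMSO replicate 1 (adjusted p = 0.0630) or IWR-1 replicate 1 (adjusted p = 0.113), and so in 5 of 9 such fits.

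The effect of each drug was set against that of the knockdown in a model of all 15 libraries. For XAV939 0 of 8 members differed by edgeR, where 13.5% of all genes did in either direction. At unadjusted p under 0.05 the number was 1 and by DESeq2 also 1, in both cases Cytl1, whose effect was smaller with XAV939 by -1.10 (SE 0.40, adjusted p = 0.0839; DESeq2 -1.08, adjusted p = 0.0389). With the replicate block Cytl1 (log2 -1.11, adjusted p = 0.00277) and Mia (log2 -0.89, adjusted p = 0.00263) were lower, among 15.4% of all genes. For IWR-1 3 members had a larger effect than in the knockdown, where 10.5% of all genes did: Cytl1 by 1.31 (SE 0.38, adjusted p = 0.0209), Cnmd by 1.14 (SE 0.33, adjusted p = 0.0198) and C1qtnf3 by 0.83 (SE 0.14, adjusted p = 0.000550). The block added Snorc (log2 0.97, adjusted p = 0.00276), Ucma (log2 0.71, adjusted p = 0.00620) and Clec3a (log2 0.84, adjusted p = 0.00728), for 6 members where 17% of all genes were higher. Without DMSO replicate 1 the IWR-1 count was 1 (C1qtnf3). In these models the table, the route of delivery, the culture set and the treatment time cannot be told apart. The drugs were given for 108 h, and the time after siRNA transfection is not given in the sources used here.

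**Figure D4:**
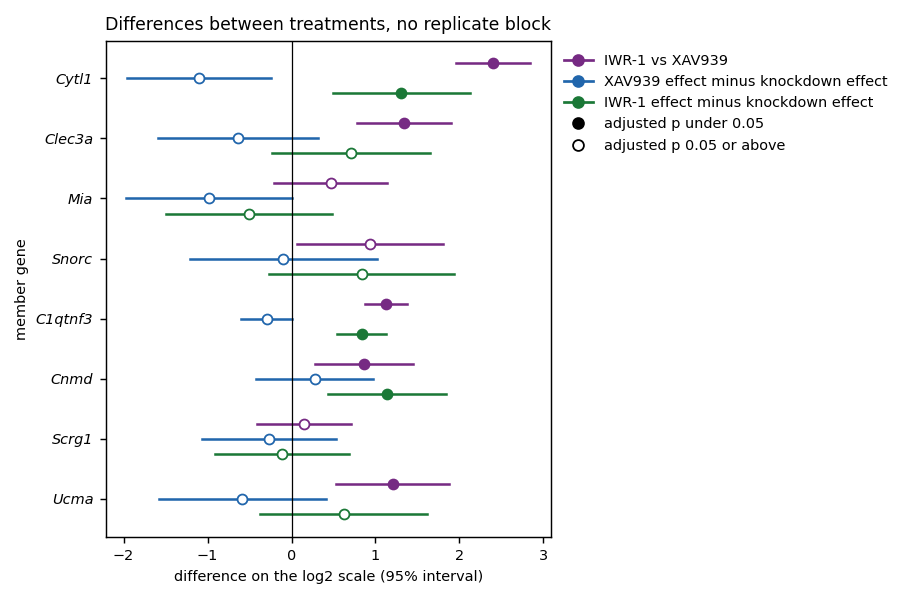
Difference between treatments for each member on the log2 scale with its 95% interval: IWR-1 against XAV939, and each drug's effect minus the knockdown effect, with filled points where the adjusted p is under 0.05. IWR-1 exceeds XAV939 for all 8 members, by 0.15 (Scrg1) to 2.40 (Cytl1), and no point of the XAV939 effect minus the knockdown effect is filled.

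Genes of the surrounding matrix moved in the same comparisons. Of 16 further cartilage matrix genes, 9 rose with siTnks/2 and 0 fell, 8 rose with XAV939 and 0 fell, and 13 rose with IWR-1. With IWR-1 1 fell (Prelp, -0.37, adjusted p = 0.0234). Their medians were 0.76, 0.75 and 1.84 on the log2 scale. These 16 ranged from collagens to smaller proteins such as Prelp, Fmod, Epyc and Chad. Over all genes tested, 10.4% rose and 7.61% fell with siTnks/2, and 7.57% and 9.85% with XAV939. With IWR-1 the shares were 16.2% and 20.2%. Without siCtrl replicate 1 or siCtrl replicate 3 the knockdown count was 2, and without DMSO replicate 1 the XAV939 count was 3. With the replicate block the XAV939 count was 13, where 16% of all genes rose and 17.4% fell. Acan, the aggrecan core protein, rose by 0.96 with siTnks/2 (adjusted p = 0.0155), 1.21 with XAV939 (adjusted p = 0.00516) and 2.95 with IWR-1 (adjusted p = 1.12e-05). Its knockdown call was lost without siCtrl replicate 1 (adjusted p = 0.0767) or siCtrl replicate 3 (adjusted p = 0.0728). Col2a1, the main cartilage collagen chain, rose by 1.66 with IWR-1 (adjusted p = 0.000194) and differed by 0.64 with siTnks/2 and 0.52 with XAV939 without passing, though it passed there by DESeq2 (adjusted p = 0.0227 and 0.0355) and with the replicate block (adjusted p = 0.0263 and 0.00668). Of the SOX genes, Sox9 (1.01, adjusted p = 8.17e-05) and Sox6 (0.91, adjusted p = 7.91e-05) rose with IWR-1. With siTnks/2 and XAV939 0 of the 3 SOX genes passed, 0 and 1 of them at unadjusted p under 0.05. The 1 was Sox9 with XAV939 (0.34, adjusted p = 0.0677), which passed with the replicate block (adjusted p = 0.0113) and with upper-quartile scaling (adjusted p = 0.0434). Of the 87 other genes on the SOX9 target list, 85 or 86 of which were tested, 39 rose and 1 fell with siTnks/2, 37 rose and 4 fell with XAV939 and 63 rose and 6 fell with IWR-1. The shares of all genes were those given for the 16 matrix genes. The 40 calls in the knockdown became 18 without siCtrl replicate 1, 19 without siCtrl replicate 3 and 62 with the replicate block. With that block 18.1% of all genes rose and 16.5% fell in the knockdown. The 41 calls with XAV939 became 26 without DMSO replicate 1.

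Collagens and other matrix genes of fibroblasts (10 genes) went mostly the other way with the drugs: 6 fell and 1 rose with XAV939, 4 fell and 1 rose with IWR-1, and 1 fell and 1 rose with siTnks/2. Over all genes tested, 9.85% fell and 7.57% rose with XAV939, and 20.2% and 16.2% with IWR-1. With siTnks/2 7.61% fell and 10.4% rose, close to the 1 and 1 of these 10. That knockdown count of 2 was 4 by DESeq2, 6 with the replicate block, 4 without siTnks/2 replicate 2 and 0 without siTnks/2 replicate 1 or any 1 of the siCtrl libraries. With the block 16.5% of all genes fell and 18.1% rose in the knockdown. Of the 10, Postn, periostin, was the one that rose in each comparison. Of 9 genes of hypertrophic chondrocytes, 4 rose with siTnks/2, 3 with XAV939 and 5 with IWR-1, beside the shares of all genes just given. Mmp13 and Spp1 fell with IWR-1. Mmp13 was 1 of the 4 that rose with siTnks/2 (0.98, adjusted p = 0.00384). Its effect was lower than in the knockdown with both IWR-1 (-2.95, adjusted p = 1.2e-06) and XAV939 (-1.48, adjusted p = 0.000724). Mmp13 had a mean of 464 CPM in siCtrl and 13070 in DMSO, and the part of this in the differences was not tested. Without siCtrl replicate 1, siCtrl replicate 2 or siTnks/2 replicate 1 the knockdown count of this list was 2, and with the replicate block its XAV939 count was 5. With the block 16% of all genes rose and 17.4% fell with XAV939. Col10a1, the collagen of hypertrophic cartilage, was the strongest of these 9 with siTnks/2 (1.44, adjusted p = 0.0117) and IWR-1 (3.07, adjusted p = 6.89e-07).

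Relatives of Cnmd, Clec3a, Mia, C1qtnf3 and Ucma in their own protein families were counted in the same comparisons. The other members had no listed relative. Of 17 listed relatives, 11 were tested in the siRNA table, of which 4 rose and 1 fell, and 13 in the drug table, of which 2 rose and 1 fell with XAV939 and 1 rose and 3 fell with IWR-1. Over all genes tested, 10.4% rose and 7.61% fell with siTnks/2, 7.57% and 9.85% with XAV939, and 16.2% and 20.2% with IWR-1. The median log2 fold change of the relatives was 0.62 with siTnks/2, 0.21 with XAV939 and -0.11 with IWR-1. The knockdown count of 5 was 3 without siTnks/2 replicate 1 or any 1 of the siCtrl libraries, and the XAV939 count of 3 was 5 without XAV939 replicate 2. With the replicate block the counts were 8 and 7, where 18.1% of all genes rose and 16.5% fell in the knockdown. With XAV939 16% of all genes rose and 17.4% fell in that fit. C1qtnf1, a relative of C1qtnf3, had a mean of 46.9 CPM in siCtrl and 31.6 in siTnks/2, and of 75.6 in DMSO, 36.6 in XAV939 and 17.6 in IWR-1. It fell in all 3 comparisons, by 0.57 (adjusted p = 0.00875), 1.04 (adjusted p = 0.000169) and 2.10 (adjusted p = 1.22e-06) on the log2 scale, while C1qtnf3 rose in each. Mgp, a Gla protein of cartilage like Ucma, rose by 0.66 with siTnks/2 (adjusted p = 0.00538). With XAV939 it differed by -0.63 (adjusted p = 0.0824) and with IWR-1 by -0.34 (adjusted p = 0.279), and its effect was lower than in the knockdown for both XAV939 (-1.31, adjusted p = 0.00842) and IWR-1 (-1.01, adjusted p = 0.0169). Clec11a, a C-type lectin, rose by 0.97 with siTnks/2 (adjusted p = 0.0127), a call lost without siTnks/2 replicate 1 (adjusted p = 0.0513). Bglap, the Gla protein osteocalcin, rose with XAV939 (1.88, adjusted p = 0.00687) and IWR-1 (1.51, adjusted p = 0.00946) from a mean of 1.63 CPM. With siTnks/2 Bglap differed by 2.23 without passing (SE 0.66, adjusted p = 0.0589). Its effects with XAV939 and IWR-1 did not pass as different from the knockdown effect (adjusted p = 0.824 and 0.573). Otor, a relative of Mia, fell with IWR-1 (-3.24, adjusted p = 0.000468), from a mean of 2.78 CPM in DMSO to 0.24.

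The members were also compared by their pattern over the 15 libraries, as log2 CPM minus the control mean of the table. Among themselves Pearson's r ran from 0.506 (Scrg1 and C1qtnf3) to 0.954 (Cytl1 and Clec3a). The 2 non-member genes nearest to each were Laptm5 (0.975) and a gene without a matched symbol for Cytl1 (0.976), Susd5 (0.989) and Laptm5 (0.979) for Clec3a, Chad (0.973) and Slc25a33 (0.969) for Mia, and Coq2 (0.983) and Angptl6 (0.977) for Snorc. For C1qtnf3 they were Fam234b (0.98) and Adgrg2 (0.979), for Cnmd Tbc1d10a (0.983) and Zbtb8os (0.981), for Scrg1 Vamp8 (0.959) and Tmem208 (0.945), and for Ucma Eef2kmt (0.9) and Elp3 (0.885). Ucma had the weakest nearest neighbours. These values describe 15 libraries that share depth, table and treatment, and were picked as the highest among 13334 genes. Chad encodes chondroadherin, a leucine-rich protein of cartilage matrix, and is 1 of the 16 further cartilage matrix genes.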

How the data were processed

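Poly(A) RNA was sequenced from 15 cultures in 5 groups of 3. The authors deposited raw counts per gene in 1 siRNA and 1 drug table. The submitters' processing notes name Trimmomatic 0.32, TopHat2 2.0.13, HTSeq 0.6.1p1 and mm10. Which annotation was used, and whether reads were counted by strand, is not given in the sources used here. IDs were matched to symbols for 24051 of 24134 genes.

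The members and gene lists were chosen with earlier results of these data known. Each table was filtered by filterByExpr, scaled by TMM and fitted with edgeR 4.0.16 (R 4.3.3, quasi-likelihood F test, prior count 2) over all its groups, and p-values were adjusted by Benjamini-Hochberg over all genes tested. Called means an adjusted p under 0.05. A joint fit of all libraries tested differences of effects (14271 genes). CPM are counts relative to the scaled library size. The SE is the log2 fold change over the root of F. Scripts were tested on simulated data.

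Replicate numbers are in the sample titles. Deviations from group means correlated between same-numbered libraries in all 9 drug pairs (r 0.143 to 0.554) and all 3 siRNA pairs (0.423 to 0.518). For other pairs r ran from -0.491 to 0.319 and from -0.408 to 0.097. In the drug table these ranges overlapped. DMSO replicate 2 had r of 0.319 with XAV939 replicate 1 and 0.317 with IWR-1 replicate 1. Its r was 0.143 with XAV939 replicate 2 and 0.244 with IWR-1 replicate 2. All main fits and calls used the group only, and fits with the number as a block were alternatives. The sources state biological replicates but not whether equal numbers share animals. With 3 against 3, an exact permutation test of a single gene cannot go below p = 0.1.

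Alternatives were DESeq2 1.42.0, other scalings and filters, the replicate block, fewer groups and leaving out each library. Named were the 8 members, Tnks and Tnks2, listed genes as counts with the strongest of a list, the SOX genes, Col2a1, Acan and relatives, and the 2 genes most like each member.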

Additional observations from a re-analysis of the deposited data

Results flagged for a closer look

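The effects of IWR-1 and of the knockdown differed for 3 members by the interaction term of the joint edgeR fit. Cytl1 rose by 2.04 on the log2 scale with siTnks/2 and by 3.36 with IWR-1, a difference of 1.31 (adjusted p = 0.0209). Cnmd differed by 0.29 with siTnks/2 and by 1.44 with IWR-1, a difference of 1.14 (adjusted p = 0.0198). C1qtnf3 rose by 0.95 and 1.79, a difference of 0.83 (adjusted p = 0.000550). For C1qtnf3 the adjusted p stayed between 0.000247 and 0.00236 whichever library was left out. For Cytl1 it was 0.0503 to 0.0556 without siTnks/2 replicate 1, siCtrl replicate 2, DMSO replicate 1 or DMSO replicate 3, and for Cnmd 0.0596 and 0.0597 without DMSO replicate 1 or IWR-1 replicate 2. The control levels of the tables differed too, with Cytl1 at 7.56 to 15.8 CPM in siCtrl and 1.92 to 3.29 in DMSO, and the part of this in the differences was not tested.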

How the results depend on the processing

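RLE and upper-quartile scaling, no filter, at least 10 counts in every library, DESeq2 and fits of only the groups compared left the counts of called members within 1.5 times, except that DESeq2 called 1 member (Cytl1) in the XAV939 effect minus the knockdown effect. Upper-quartile scaling took Cnmd from the IWR-1 against XAV939 comparison (adjusted p = 0.0536; 4 members left). With the replicate block 6 members were called for XAV939, 2 for the XAV939 effect minus the knockdown effect and 6 for the IWR-1 effect minus the knockdown effect. Among the members, the block changed no call beyond those given in the report. Leaving out 1 library at a time gave 1 to 5 members for siTnks/2, 3 to 5 for XAV939, 5 to 8 for IWR-1, 3 to 6 for IWR-1 against XAV939, 0 to 1 for the XAV939 difference and 1 to 4 for the IWR-1 difference. The cause was not tested.

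The sign turned only for members that were not called, and only in fits that left out 1 library at a time. Ucma turned in the knockdown (range -0.174 to 0.470) and with XAV939 (-0.506 to 0.0683), and Scrg1 in IWR-1 against XAV939 (-0.0503 to 0.276) and in both differences of effects (XAV939 -0.488 to 0.0403, IWR-1 -0.338 to 0.178). Snorc (-0.443 to 0.507) and Cnmd (-0.0604 to 0.518) turned in the XAV939 difference. Snorc did so in 4 of 15 fits, and Scrg1 turned in 2 of 15 fits of the IWR-1 difference. Each other case was 1 fit.

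The same alternatives were applied to the gene lists and the named non-members after the data had been seen. The relatives called were 8 with the block in the knockdown, and 7 with the block and 5 by DESeq2 with XAV939. Cytl1 and C1qtnf3, at 61 to 1672 and 217 to 1555 reads, are the members with the fewest reads.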
